A study of Mus musculus with 35 samples.

Results

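Mast cells and basophils read allergens and alarm signals through a small set of receptors, and 8 genes that encode or control this machinery were followed in mouse bone marrow progenitors expressing forms of the leukemia fusion oncoprotein NUP98-HOXA9. The 8 genes (Fcer1a, Ms4a2, Il1rl1, Gata2, Mitf, Hdc, Cd200r3 and Prss34) were taken by name from the 49671 genes of the count table, and all 8 passed the filter on low counts that left 17166 genes for testing. Lineage-negative (lin-) hematopoietic stem and progenitor cells, bone marrow cells depleted of those that carry markers of mature blood lineages, were isolated from C57Bl/6 mice aged 8 to 11 weeks, transduced with a lentivirus and sorted. They were then grown for 1 week in methylcellulose (Methocult M3434, which holds myeloid and erythroid growth factors) with 10 ng/mL GM-CSF, and RNA was sequenced from 5 libraries in each of 7 groups. The control group, Empty, carried the vector without the fusion. The other groups expressed constructs tagged with mEGFP, a fluorescent protein, whose labels write NHX9 where the paper writes NHA9. By the paper's methods, Empty cells were sorted for the fluorescent protein mCherry, and cells with a construct for both mCherry and mEGFP. Comparisons with Empty therefore also differ in how the cells were sorted. G-NHX9 was the whole fusion, in which the phenylalanine-glycine (FG) repeats of the nucleoporin NUP98 are joined to the DNA-binding homeodomain of HOXA9. G-NHX9-8FA carried phenylalanine to alanine changes in part of the FG motifs, and G-NHX9-21FGAA carried changes of FG motifs to alanine pairs in the C-terminal FG region. G-NHX9-midi was truncated to that C-terminal FG region and the HOXA9 part, G-NHX9-midi-21FGAA carried the 21FGAA changes in the truncated form, and G-NHX9-DDNA was the whole fusion with a homeodomain mutated to weaken DNA binding. The cells of every group were a bulk culture with no selection for mast cells, so that fewer cells of a type and less RNA per cell cannot be told apart.

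The high-affinity IgE receptor consists of an alpha chain that binds IgE (Fcer1a), a beta chain that amplifies the signal (Ms4a2) and a gamma chain dimer shared with other Fc receptors (Fcer1g), and its crosslinking by allergen releases stored histamine and proteases. Il1rl1 encodes ST2, the receptor for the alarm cytokine IL-33, on mast cells, basophils and other cells. The transcription factors GATA2 and MITF are needed for the mast cell and basophil lineages and for mast cell maturation, respectively, histidine decarboxylase (Hdc) makes histamine, Cd200r3 encodes an activating surface receptor of mast cells and basophils, and Prss34 encodes mMCP-11, a serine protease made mainly by basophils.

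In the annotation GENCODE M21 of the genome build GRCm38, Fcer1a (ENSMUSG00000005339.10) lies on chromosome 1 from 173221284 to 173227214 on the minus strand and Ms4a2 (ENSMUSG00000024680.12) on chromosome 19 from 11615523 to 11623719 on the minus strand. Il1rl1 (ENSMUSG00000026069.15) lies on chromosome 1 from 40429570 to 40465415 on the plus strand, Gata2 (ENSMUSG00000015053.14) on chromosome 6 from 88193891 to 88207032 on the plus strand, and Mitf (ENSMUSG00000035158.15) on the same chromosome from 97807052 to 98021349 on the plus strand, with the pseudogene Gm15531 inside it on the opposite strand. Hdc (ENSMUSG00000027360.5) lies on chromosome 2 from 126593667 to 126619299 on the minus strand, Cd200r3 (ENSMUSG00000036172.17) on chromosome 16 from 44943678 to 44981380 on the plus strand, and Prss34 (ENSMUSG00000056399.1) on chromosome 17 from 25298394 to 25300165 on the plus strand.

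The promoters of the genes with the largest changes, and that of Prss34, the 1 gene whose change with 21FGAA differed between the whole and the truncated fusion, are shown beside the counts. Each is the 250 bases before a RefSeq transcription start (GRCm38.p6), written 5′ to 3′ along the strand of the gene. Capitals mark GATA words (AGATAA, its variant form AGATAG, the related word TGATAA and its variant form TGATAG, on either strand) and E-box words (CACGTG and the related word CATGTG, on either strand), the letters that GATA factors and MITF are known to bind. Il1rl1 has a pair of RefSeq starts, and the upstream one is shown. The motifs and these promoters were chosen after the values were seen.
Fcer1a (chr1:173227230-173227479, minus strand): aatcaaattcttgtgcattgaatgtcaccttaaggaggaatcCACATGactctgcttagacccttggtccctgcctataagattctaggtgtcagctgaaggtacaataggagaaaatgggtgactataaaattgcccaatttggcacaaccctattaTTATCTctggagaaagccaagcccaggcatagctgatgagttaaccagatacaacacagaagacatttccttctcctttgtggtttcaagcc
Ms4a2 (chr19:11623720-11623969, minus strand): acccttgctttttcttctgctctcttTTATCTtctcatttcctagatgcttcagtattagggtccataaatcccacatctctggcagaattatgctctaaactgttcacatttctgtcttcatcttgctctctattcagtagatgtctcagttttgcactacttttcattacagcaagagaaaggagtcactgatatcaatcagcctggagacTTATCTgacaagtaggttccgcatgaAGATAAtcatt
Il1rl1 (chr1:40429320-40429569, plus strand): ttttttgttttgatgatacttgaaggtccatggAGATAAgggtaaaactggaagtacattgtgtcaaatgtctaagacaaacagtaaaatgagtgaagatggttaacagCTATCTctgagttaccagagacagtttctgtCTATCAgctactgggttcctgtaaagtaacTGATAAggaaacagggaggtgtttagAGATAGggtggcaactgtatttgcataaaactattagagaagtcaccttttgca
Prss34 (chr17:25298144-25298393, plus strand): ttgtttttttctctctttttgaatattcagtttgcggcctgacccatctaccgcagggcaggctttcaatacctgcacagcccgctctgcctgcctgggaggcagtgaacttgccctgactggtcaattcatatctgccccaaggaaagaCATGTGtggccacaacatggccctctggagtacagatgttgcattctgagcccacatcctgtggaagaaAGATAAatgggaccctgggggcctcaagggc

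The 8 genes have 12 RefSeq start windows (250 bases before to 50 after the start). A GATA word was found in 9 of the 12 windows, against 29.8% of 32851 promoter windows of this length. Of the 8 genes, 7 had such a word in at least 1 window, with none in the windows of Gata2 itself. No like share was counted over all genes, and a gene with several windows has more places for a match. The upstream Il1rl1 window held 5 GATA words, and the Ms4a2 and Cd200r3 windows held 3 each. An E-box word was found in 2 windows, those of Fcer1a and Prss34, against 20.4% of all promoters. The word AGGAAG and the related word CGGAAG on either strand, a core that ETS factors such as PU.1 can bind, were in 3 of the 12 windows against 46.5% of all promoters. These matches describe letters in the windows, and binding was not measured.

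Total counts per library lay between 31559914 and 75810659. Levels are CPM (counts scaled to a common library size) after TMM scaling, and fold changes, on the log2 scale, are from 1 edgeR model of the 35 libraries. The threshold for a change was a Benjamini-Hochberg adjusted p under 0.05 over all 17166 genes tested in edgeR's quasi-likelihood test ("edgeR adjusted p" below). Apart from ages, the labels do not say whether the 5 libraries of a group came from separate mice or cultures. P-values therefore measure the spread between these libraries, which may be technical. The mice were 8 weeks old for 32 of the libraries, and the exceptions were Empty replicates 4 and 5 (9 and 10 weeks) and G-NHX9 replicate 1 (11 weeks). By their ages, these exceptions came from other mice than the rest of their group. Reads placed on mouse Hoxa9 were 0.975 ± 0.221 CPM (SD, n = 5) in Empty, 96.6 ± 14.4 CPM in G-NHX9, 33.8 ± 5.2 CPM in G-NHX9-8FA, 34.6 ± 7.19 CPM in G-NHX9-midi, 18.9 ± 2.67 CPM in G-NHX9-DDNA, 3.28 ± 1.92 CPM in G-NHX9-21FGAA and 1.12 ± 0.720 CPM in G-NHX9-midi-21FGAA. Reads of the gene and of the transgene cannot be told apart in these counts, so that this is no measure of the construct. Empty replicate 5 had the lowest Fcer1a, Ms4a2, Il1rl1, Hdc, Cd200r3 and Prss34 of its group, and G-NHX9-midi-21FGAA replicate 1 the lowest Fcer1a, Ms4a2, Il1rl1, Gata2, Hdc, Cd200r3 and Prss34 of its group. Calls that depend on leaving out either library are named where they occur.

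Against Empty, the genes among the 8 that passed the test were all lower with G-NHX9, G-NHX9-8FA and G-NHX9-midi, and all higher with G-NHX9-21FGAA and G-NHX9-midi-21FGAA. With G-NHX9, 4 of the 8 genes fell (Fcer1a, Il1rl1, Mitf and Cd200r3) and none rose, where 32.1% of all genes tested changed (16.9% rose and 15.2% fell). With G-NHX9-8FA, 4 fell (Fcer1a, Il1rl1, Gata2 and Prss34), where 26.6% of all genes changed (13.4% rose and 13.2% fell). With G-NHX9-midi, 5 fell (Fcer1a, Il1rl1, Gata2, Mitf and Prss34), where 40.5% of all genes changed (20.5% rose and 20% fell). With G-NHX9-21FGAA, 4 rose (Fcer1a, Ms4a2, Il1rl1 and Gata2), where 27.1% of all genes changed (14.7% rose and 12.5% fell). With G-NHX9-midi-21FGAA, 3 rose (Fcer1a, Ms4a2 and Il1rl1), where 16.9% of all genes changed (9.59% rose and 7.32% fell). With G-NHX9-DDNA, 0 of the 8 passed in edgeR's quasi-likelihood test and in DESeq2, where 17.2% of all genes changed (9.85% rose and 7.35% fell). Of the 8, Ms4a2 and Mitf had unadjusted p-values under 0.05 in the quasi-likelihood test. With all 35 libraries blocked by replicate number, 2 (Ms4a2 and Mitf) passed, where 4297 of all genes did. Same-numbered libraries of G-NHX9-DDNA and Empty correlated in their deviations from the group means. By age, those numbered 4 and 5 came from different mice.

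The median log2 fold change of the 8 genes against Empty was -0.60 with G-NHX9, -0.69 with G-NHX9-8FA, -0.67 with G-NHX9-midi, 0.65 with G-NHX9-21FGAA, 0.67 with G-NHX9-midi-21FGAA and 0.31 with G-NHX9-DDNA. The median over all genes tested lay between -0.02 and 0.03 in these comparisons. The 6 comparisons share the Empty libraries.

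**Figure D1:**
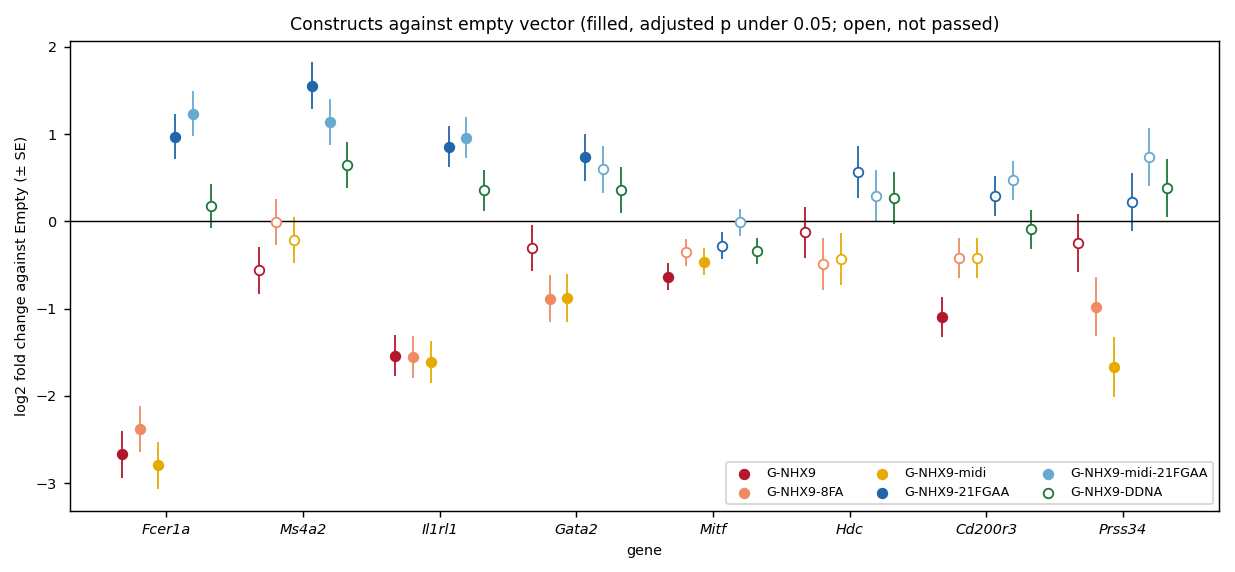
Log2 fold change against Empty (y axis, with standard error) of the 8 genes (x axis) in each of the 6 constructs, from the edgeR fit to 35 libraries. Filled points passed an adjusted p of 0.05 and open points did not. Fcer1a ran from -2.80 with G-NHX9-midi to 1.23 with G-NHX9-midi-21FGAA, while Hdc passed with no construct.

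Fcer1a, the IgE-binding alpha chain, had the widest range. Its level was 200, 151, 138, 116 and 62.4 CPM in Empty replicates 1 to 5. It was 20.5, 19.8, 25.3, 21.7 and 17.6 CPM with G-NHX9, 24.3, 29.0, 32.4, 22.5 and 19.8 CPM with G-NHX9-8FA, and 15.1, 14.1, 14.3, 23.7 and 28.8 CPM with G-NHX9-midi. The libraries of these 3 constructs all lay below the lowest Empty library and overlapped with each other. Fcer1a was 230, 217, 246, 346 and 269 CPM with G-NHX9-21FGAA, 127, 268, 351, 413 and 410 CPM with G-NHX9-midi-21FGAA, and 116, 146, 172, 185 and 133 CPM with G-NHX9-DDNA. The G-NHX9-21FGAA libraries lay above every Empty and every G-NHX9-DDNA library, whereas replicate 1 of G-NHX9-midi-21FGAA lay within the Empty range.

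Relative to Empty, Fcer1a fell by 2.67 on the log2 scale with G-NHX9 (SE 0.27; 6.36-fold lower; edgeR adjusted p = 3.2e-09). It fell by 2.38 with G-NHX9-8FA (SE 0.27; edgeR adjusted p = 3.7e-08) and fell by 2.80 with G-NHX9-midi (SE 0.27; edgeR adjusted p = 7.3e-10). It rose by 0.97 with G-NHX9-21FGAA (SE 0.26; 1.96-fold; edgeR adjusted p = 0.0048) and by 1.23 with G-NHX9-midi-21FGAA (SE 0.26; 2.35-fold; edgeR adjusted p = 0.0017). With G-NHX9-DDNA the difference was 0.17 (95% confidence interval -0.35 to 0.69; edgeR adjusted p = 0.70). The 5 calls were kept in each fit that left out 1 library, and without Empty replicate 5 the G-NHX9-DDNA difference was -0.0040.

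**Figure D2:**
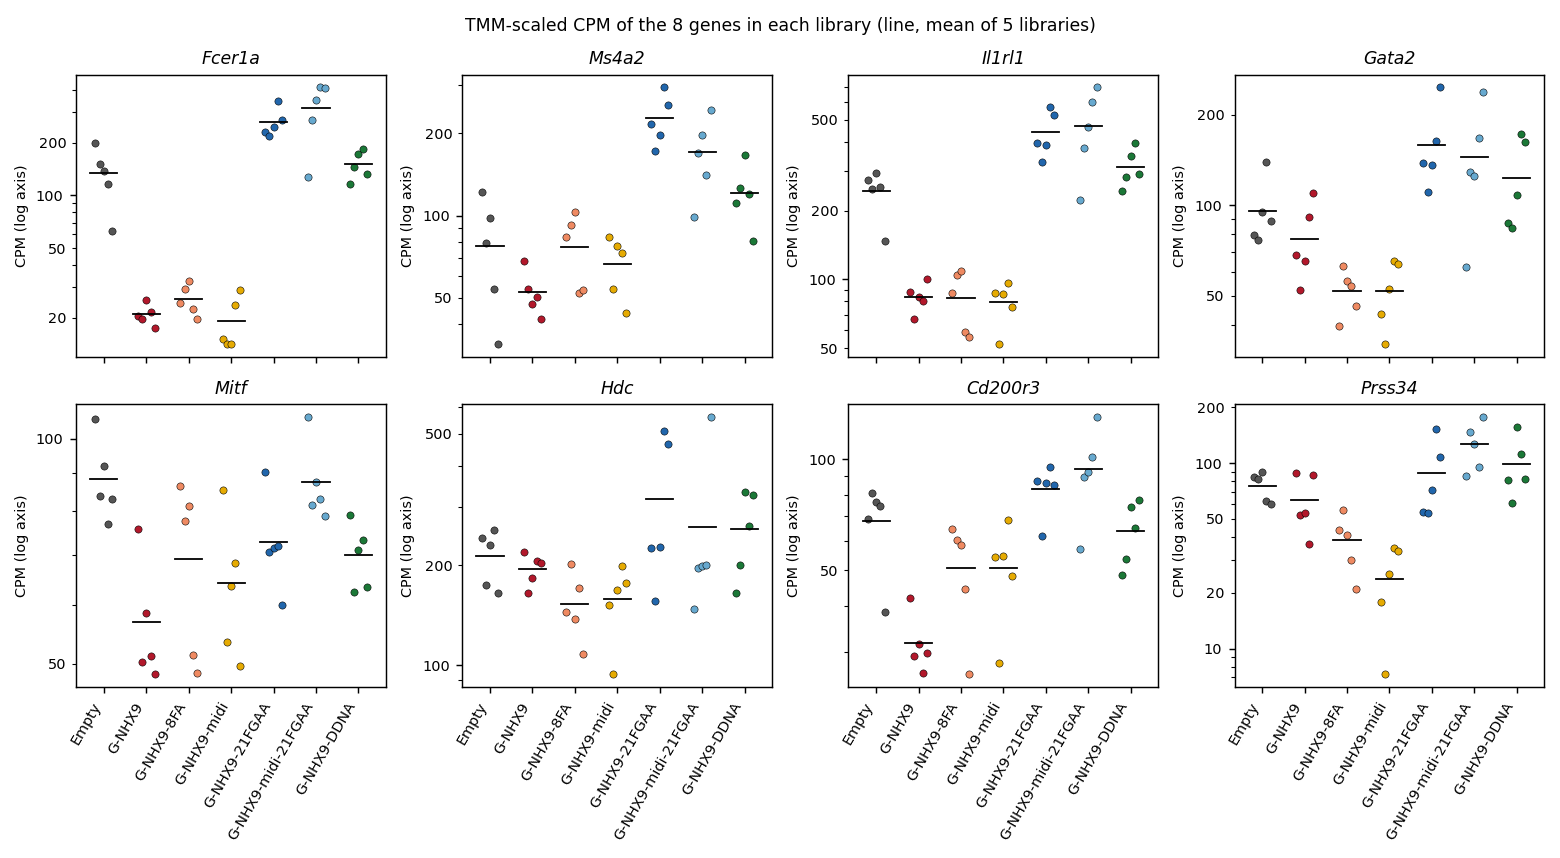
TMM-scaled CPM (y axis, log scale) of each of the 8 genes in each library, by group (x axis), with the mean of 5 libraries as a line. Fcer1a and Il1rl1 show a gap between the Empty libraries and those with G-NHX9, G-NHX9-8FA and G-NHX9-midi, while for Hdc every construct overlaps with Empty.

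Ms4a2, the beta chain of the same receptor, passed the test against Empty with both 21FGAA constructs. Its level was 122, 79.1, 98.0, 53.6 and 33.7 CPM in Empty, 68.4, 53.9, 47.4, 50.2 and 41.8 CPM with G-NHX9, 83.7, 92.6, 103, 52.0 and 53.3 CPM with G-NHX9-8FA, and 83.8, 53.8, 77.7, 73.2 and 44.0 CPM with G-NHX9-midi. All libraries of these 3 constructs lay within the Empty range. It was 216, 173, 198, 295 and 254 CPM with G-NHX9-21FGAA, all above the highest Empty library, 99.0, 170, 198, 141 and 244 CPM with G-NHX9-midi-21FGAA, and 111, 126, 166, 120 and 80.9 CPM with G-NHX9-DDNA.

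Ms4a2 rose by 1.56 on the log2 scale with G-NHX9-21FGAA (SE 0.27; 2.94-fold; edgeR adjusted p = 9e-05) and by 1.14 with G-NHX9-midi-21FGAA (SE 0.27; edgeR adjusted p = 0.004). Its difference from Empty was -0.56 with G-NHX9 (edgeR adjusted p = 0.11), -0.0043 with G-NHX9-8FA (edgeR adjusted p = 0.99), -0.22 with G-NHX9-midi (edgeR adjusted p = 0.54) and 0.65 with G-NHX9-DDNA (edgeR adjusted p = 0.089). Without Empty replicate 5 the G-NHX9 difference was -0.76 (edgeR adjusted p = 0.02), and without Empty replicate 1 the G-NHX9-DDNA difference was 0.87 (edgeR adjusted p = 0.024). With the replicate number as a block in the fit to all libraries, the G-NHX9-DDNA difference was 0.68 (edgeR adjusted p = 0.049).

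The alpha and beta chains were also set against each other within a library. The log2 ratio of Fcer1a to Ms4a2 CPM was 0.83 ± 0.24 (SD, n = 5) in Empty, 0.21 ± 0.12 with G-NHX9-21FGAA, 0.83 ± 0.44 with G-NHX9-midi-21FGAA and 0.33 ± 0.32 with G-NHX9-DDNA. It was -1.31 ± 0.31 with G-NHX9, -1.55 ± 0.23 with G-NHX9-8FA and -1.82 ± 0.76 with G-NHX9-midi. The highest value in the last 3 groups was -0.61 (a G-NHX9-midi library) and the lowest in the other 4 was 0.047 (a G-NHX9-DDNA library). Fcer1a alone separated the same groups, with at most 32.4 CPM in these 3 and at least 62.4 CPM in the other 4. This ratio was chosen after the values were seen and was not tested, and because CPM are not scaled for transcript length its sign says nothing of which chain had more transcripts.

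**Figure D3:**
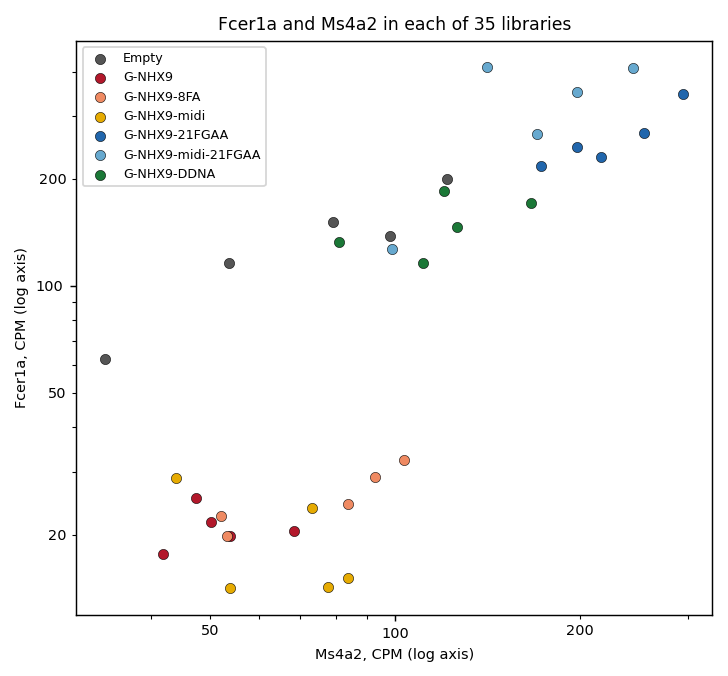
Fcer1a (y axis) against Ms4a2 (x axis), both in CPM on log axes, in each of the 35 libraries, coloured by group. Libraries with G-NHX9, G-NHX9-8FA and G-NHX9-midi lie together at the bottom, with Fcer1a of at most 32.4 CPM at Ms4a2 levels that Empty libraries also had.

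Il1rl1, which encodes the IL-33 receptor chain ST2, moved in the same directions as Fcer1a over a smaller range. Its level was 274, 250, 292, 254 and 147 CPM in Empty, 87.6, 66.7, 83.6, 80.6 and 101 CPM with G-NHX9, 87.6, 105, 108, 59.0 and 55.7 CPM with G-NHX9-8FA, and 87.3, 51.8, 86.4, 96.6 and 75.8 CPM with G-NHX9-midi. Every library of these 3 constructs lay below the lowest Empty library. It was 397, 327, 388, 568 and 525 CPM with G-NHX9-21FGAA, above every Empty library, 222, 376, 467, 602 and 695 CPM with G-NHX9-midi-21FGAA, and 244, 282, 347, 395 and 289 CPM with G-NHX9-DDNA.

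Il1rl1 fell by 1.54 on the log2 scale with G-NHX9 (SE 0.24; edgeR adjusted p = 6.4e-06), by 1.55 with G-NHX9-8FA (SE 0.24; edgeR adjusted p = 7.5e-06) and by 1.61 with G-NHX9-midi (SE 0.24; edgeR adjusted p = 1.7e-06). It rose by 0.86 with G-NHX9-21FGAA (SE 0.23; edgeR adjusted p = 0.0065) and by 0.96 with G-NHX9-midi-21FGAA (SE 0.23; edgeR adjusted p = 0.0056), and differed by 0.35 with G-NHX9-DDNA (95% confidence interval -0.12 to 0.83; edgeR adjusted p = 0.32). Il1rl1 makes a membrane receptor and a soluble decoy from different transcripts, which these counts per gene do not separate.

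Gata2, the transcription factor that the mast cell and basophil lineages need, had a narrower range. Its level was 79.2, 76.7, 94.9, 139 and 88.6 CPM in Empty, 68.2, 52.4, 65.1, 91.3 and 110 CPM with G-NHX9, 39.5, 62.7, 56.0, 53.8 and 46.1 CPM with G-NHX9-8FA, and 43.5, 34.4, 52.8, 65.2 and 63.8 CPM with G-NHX9-midi. The G-NHX9-8FA and G-NHX9-midi libraries lay below every Empty library, and the G-NHX9 libraries did not. Gata2 was 138, 111, 136, 163 and 246 CPM with G-NHX9-21FGAA, 62.1, 129, 125, 167 and 238 CPM with G-NHX9-midi-21FGAA, and 86.9, 83.9, 108, 172 and 162 CPM with G-NHX9-DDNA, and these groups overlapped with Empty.

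Gata2 fell by 0.89 on the log2 scale with G-NHX9-8FA (SE 0.27; edgeR adjusted p = 0.014) and by 0.88 with G-NHX9-midi (SE 0.27; edgeR adjusted p = 0.0093), while its difference with G-NHX9 was -0.31 (edgeR adjusted p = 0.42). It rose by 0.73 with G-NHX9-21FGAA (SE 0.27; edgeR adjusted p = 0.041). This last call was lost without any 1 of Empty replicates 1, 2, 3 and 5 or of G-NHX9-21FGAA replicates 4 and 5, and without G-NHX9-21FGAA replicate 5 the difference was 0.54 (edgeR adjusted p = 0.16). The G-NHX9-8FA call was lost without Empty replicate 4 (-0.73; edgeR adjusted p = 0.053). With G-NHX9-midi-21FGAA the difference was 0.59 (edgeR adjusted p = 0.13), but 0.80 without its replicate 1 (edgeR adjusted p = 0.025) and 0.53 with the replicate number, which paired these libraries, as a block (edgeR adjusted p = 0.035). With G-NHX9-DDNA it was 0.36 (edgeR adjusted p = 0.39).

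Mitf, a basic helix-loop-helix factor that drives mast cell granule genes, had group means between 56.8 CPM (G-NHX9) and 88.4 CPM (Empty). Its level was 106, 83.8, 91.8, 76.9 and 83.1 CPM in Empty, 75.7, 50.3, 58.5, 51.3 and 48.4 CPM with G-NHX9, 86.5, 77.7, 81.3, 51.4 and 48.7 CPM with G-NHX9-8FA, and 85.3, 53.5, 63.6, 68.1 and 49.7 CPM with G-NHX9-midi. The G-NHX9 libraries lay below every Empty library, and those of the other 2 constructs overlapped with Empty. It was 90.3, 70.6, 71.4, 71.8 and 59.97 CPM with G-NHX9-21FGAA, 107, 81.5, 87.6, 83.1 and 78.9 CPM with G-NHX9-midi-21FGAA, and 79.1, 62.5, 71.0, 73.2 and 63.4 CPM with G-NHX9-DDNA.

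Mitf fell by 0.64 on the log2 scale with G-NHX9 (SE 0.15; edgeR adjusted p = 0.0017) and by 0.46 with G-NHX9-midi (SE 0.15; edgeR adjusted p = 0.015). The second call was lost without Empty replicate 1 (-0.37; edgeR adjusted p = 0.064) and without replicate 2 or 5 of G-NHX9-midi. The differences of -0.35 with G-NHX9-8FA (edgeR adjusted p = 0.088), -0.28 with G-NHX9-21FGAA (edgeR adjusted p = 0.18), -0.01 with G-NHX9-midi-21FGAA (edgeR adjusted p = 0.97) and -0.34 with G-NHX9-DDNA (edgeR adjusted p = 0.13) did not pass. The G-NHX9-8FA difference passed without its replicate 1 (-0.46; edgeR adjusted p = 0.028) or 3 (-0.43; edgeR adjusted p = 0.048), and with libraries blocked by replicate number that of G-NHX9-DDNA was -0.33 (edgeR adjusted p = 0.0084). Mitf has several starts that give different isoforms, which the counts do not separate, and reads from Gm15531 may be included where strand was not used in counting.

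Hdc, which makes histamine, passed the test against Empty with no construct. Its level was 242, 175, 230, 256 and 165 CPM in Empty, 220, 165, 184, 206 and 203 CPM with G-NHX9, 144, 202, 138, 171 and 108 CPM with G-NHX9-8FA, and 152, 93.9, 168, 199 and 177 CPM with G-NHX9-midi. It was 226, 157, 228, 509 and 464 CPM with G-NHX9-21FGAA, 147, 196, 199, 200 and 560 CPM with G-NHX9-midi-21FGAA, and 165, 200, 334, 264 and 326 CPM with G-NHX9-DDNA. Replicates 4 and 5 (509 and 464 CPM) set the higher mean of G-NHX9-21FGAA, and replicate 5 alone (560 CPM) that of G-NHX9-midi-21FGAA. All groups overlapped with Empty. Its largest difference from Empty was 0.57 with G-NHX9-21FGAA (SE 0.30; edgeR adjusted p = 0.16).

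Cd200r3, the activating surface receptor, was lowest with G-NHX9. Its level was 68.7, 80.9, 76.7, 74.7 and 38.6 CPM in Empty, 42.1, 29.2, 31.5, 26.3 and 29.8 CPM with G-NHX9, 64.7, 60.5, 58.4, 44.3 and 26.1 CPM with G-NHX9-8FA, and 54.3, 28.1, 54.5, 68.3 and 48.1 CPM with G-NHX9-midi. G-NHX9 overlapped with Empty through Empty replicate 5. It was 87.2, 61.9, 86.1, 95.6 and 85.3 CPM with G-NHX9-21FGAA, 57.0, 89.5, 92.3, 101 and 130 CPM with G-NHX9-midi-21FGAA, and 48.4, 53.6, 74.2, 65.2 and 77.4 CPM with G-NHX9-DDNA. Cd200r3 fell by 1.10 on the log2 scale with G-NHX9 (SE 0.23; edgeR adjusted p = 0.00038), and the other 5 constructs did not pass, with differences from -0.42 to 0.47. Without Empty replicate 5 the difference of -0.58 with G-NHX9-midi passed (edgeR adjusted p = 0.039).

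Prss34, the basophil protease gene, was lowest with G-NHX9-midi. Its level was 84.3, 81.7, 89.2, 62.5 and 60.4 CPM in Empty, 88.4, 52.3, 53.6, 36.8 and 86.6 CPM with G-NHX9, 43.5, 56.1, 41.0, 29.9 and 21.0 CPM with G-NHX9-8FA, and 17.9, 7.26, 25.1, 35.01 and 33.4 CPM with G-NHX9-midi. The G-NHX9-8FA and G-NHX9-midi libraries lay below every Empty library, and those of G-NHX9 overlapped with Empty. It was 54.4, 53.6, 71.6, 153 and 108 CPM with G-NHX9-21FGAA, 85.5, 147, 127, 95.3 and 177 CPM with G-NHX9-midi-21FGAA, and 81.4, 60.8, 157, 112 and 82.4 CPM with G-NHX9-DDNA. Prss34 fell by 0.98 on the log2 scale with G-NHX9-8FA (SE 0.34; edgeR adjusted p = 0.029) and by 1.67 with G-NHX9-midi (SE 0.34; edgeR adjusted p = 0.00019), and its difference with G-NHX9 was -0.25 (edgeR adjusted p = 0.61). The G-NHX9-8FA call was lost without Empty replicate 3 (-0.93; edgeR adjusted p = 0.055), without G-NHX9-8FA replicate 4 (-0.92; edgeR adjusted p = 0.066) and without G-NHX9-8FA replicate 5 (-0.84; edgeR adjusted p = 0.08).

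In the order of the group means, few neighbouring groups were set apart by their libraries. For Fcer1a the order from high to low was G-NHX9-midi-21FGAA, G-NHX9-21FGAA, G-NHX9-DDNA, Empty, G-NHX9-8FA, G-NHX9 and G-NHX9-midi, with gaps between G-NHX9-21FGAA and G-NHX9-DDNA and between Empty and G-NHX9-8FA. For Il1rl1 the single gap lay between Empty and G-NHX9. For the other 6 genes the ranges of all neighbouring groups overlapped.

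The constructs were next compared with each other, to set the FG changes and the homeodomain changes against the fusion they were made from. Of the 8 genes, Cd200r3 was higher with G-NHX9-8FA than with G-NHX9, where 14.5% of all genes changed (6.43% higher and 8.04% lower). Its difference was 0.68 on the log2 scale (SE 0.23; edgeR adjusted p = 0.043), and it was lost in 8 of 10 fits that left out 1 library, the exceptions being G-NHX9 replicate 1 and G-NHX9-8FA replicate 5. The Fcer1a difference between these constructs was 0.29 (95% confidence interval -0.24 to 0.82; edgeR adjusted p = 0.5) and that of Il1rl1 -0.01 (95% confidence interval -0.49 to 0.47; edgeR adjusted p = 0.98).

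Between G-NHX9-midi and G-NHX9, 2 of the 8 genes differed, where 19.7% of all genes changed (8.5% higher and 11.2% lower). Prss34 was lower with G-NHX9-midi (log2 fold change -1.42, SE 0.34; edgeR adjusted p = 0.0029), without overlap of the libraries. Cd200r3 was higher by 0.67 (SE 0.23; edgeR adjusted p = 0.035), a call lost in 7 of 10 fits that left out 1 library, namely G-NHX9 replicates 2 to 5 and G-NHX9-midi replicates 1, 3 and 4, with values from 0.55. The Fcer1a difference was -0.13 (95% confidence interval -0.66 to 0.40; edgeR adjusted p = 0.77) and the Il1rl1 difference -0.07 (95% confidence interval -0.55 to 0.40; edgeR adjusted p = 0.86).

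Changing the C-terminal FG motifs to alanine pairs in the whole fusion went with higher levels of 5 of the 8 genes, where 17.2% of all genes differed between G-NHX9-21FGAA and G-NHX9 (8.91% higher and 8.34% lower). Fcer1a was higher by 3.64 on the log2 scale (SE 0.28; 12.5-fold; edgeR adjusted p = 1.6e-11), Il1rl1 by 2.40 (SE 0.25; 5.26-fold; edgeR adjusted p = 5.8e-09) and Ms4a2 by 2.12 (SE 0.27; 4.34-fold; edgeR adjusted p = 5.7e-07). Cd200r3 was higher by 1.39 (SE 0.23; edgeR adjusted p = 3.3e-05) and Gata2 by 1.04 (SE 0.27; edgeR adjusted p = 0.0058). The libraries of both groups did not overlap for any of these 5 genes, and the share of all genes without overlap was not counted. Mitf differed by 0.36 (edgeR adjusted p = 0.12), and by 0.36 with the replicate number as a block (edgeR adjusted p = 0.0036), or by 0.51 without G-NHX9 replicate 1 (edgeR adjusted p = 0.025). Hdc differed by 0.69 (edgeR adjusted p = 0.11), and by 0.89 without G-NHX9-21FGAA replicate 2 (edgeR adjusted p = 0.037).

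In the truncated fusion, all 8 genes rose with G-NHX9-midi-21FGAA relative to G-NHX9-midi, where 43.2% of all genes changed (21% rose and 22.2% fell). Fcer1a rose by 4.03 on the log2 scale (SE 0.29; 16.4-fold; edgeR adjusted p = 6.3e-13), Il1rl1 by 2.57 (SE 0.25; edgeR adjusted p = 3.7e-10), Prss34 by 2.41 (SE 0.35; edgeR adjusted p = 1.1e-06), Gata2 by 1.47 (SE 0.27; edgeR adjusted p = 4.5e-05) and Ms4a2 by 1.36 (SE 0.27; edgeR adjusted p = 0.00011). Cd200r3 rose by 0.89 (SE 0.23; edgeR adjusted p = 0.0019), Hdc by 0.72 (SE 0.30; edgeR adjusted p = 0.049) and Mitf by 0.45 (SE 0.15; edgeR adjusted p = 0.017). The Hdc call rested on single libraries: it was 0.25 without G-NHX9-midi-21FGAA replicate 5 (edgeR adjusted p = 0.47) and was also lost without any 1 of G-NHX9-midi replicates 1, 2, 3 and 5. The Mitf call was lost without G-NHX9-midi replicate 2 (0.39; edgeR adjusted p = 0.054) or 5 (0.37; edgeR adjusted p = 0.059) and without G-NHX9-midi-21FGAA replicate 1 (0.37; edgeR adjusted p = 0.067).

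With the 21FGAA changes the whole fusion keeps its N-terminal FG motifs, while the truncated one keeps none. The 21FGAA change differed between the whole and the truncated fusion for 1 of the 8 genes by a test of the interaction, where 12.6% of all genes did so (5.2% in the positive and 7.43% in the negative direction). For Prss34 it was 0.47 in the whole fusion (SE 0.33; edgeR adjusted p = 0.41) and 2.41 in the truncated one, a difference of -1.94 (SE 0.48; edgeR adjusted p = 0.0054) that passed in each fit that left out 1 library. For Fcer1a the difference between both changes was -0.39 (95% confidence interval -1.13 to 0.35; edgeR adjusted p = 0.54) and for Ms4a2 0.76 (95% confidence interval -0.0049 to 1.53; edgeR adjusted p = 0.2).

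**Figure D4:**
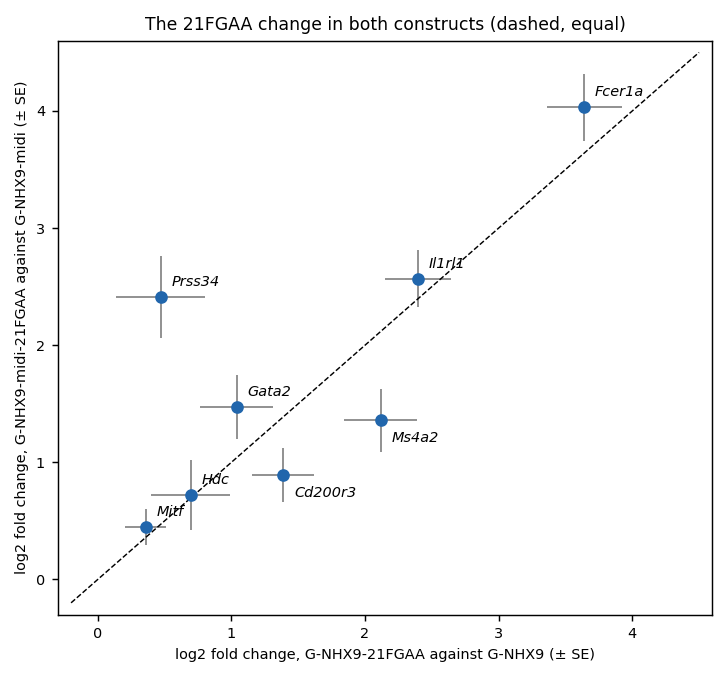
Log2 fold change (with standard errors) of the 8 genes between G-NHX9-21FGAA and G-NHX9 (x axis) and between G-NHX9-midi-21FGAA and G-NHX9-midi (y axis), with a dashed line of equal change. Fcer1a lies highest at 3.64 and 4.03, and Prss34 lies away from the line at 0.47 and 2.41.

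Weakening DNA binding of the homeodomain went with higher levels of 4 of the 8 genes, where 22.1% of all genes differed between G-NHX9-DDNA and G-NHX9 (10.7% higher and 11.4% lower). Fcer1a was higher by 2.84 on the log2 scale (SE 0.27; 7.17-fold; edgeR adjusted p = 1.2e-09), Il1rl1 by 1.89 (SE 0.24; edgeR adjusted p = 3.2e-07), Ms4a2 by 1.21 (SE 0.27; edgeR adjusted p = 0.0011) and Cd200r3 by 1.00 (SE 0.23; edgeR adjusted p = 0.0014), none with overlap between the groups. How many of all genes lacked such overlap was not counted. Gata2 differed by 0.67 (edgeR adjusted p = 0.075) and Mitf by 0.30 (edgeR adjusted p = 0.18). With libraries blocked by replicate number, Gata2 differed by 0.65 (edgeR adjusted p = 0.0084) and Mitf by 0.31 (edgeR adjusted p = 0.0097), and Gata2 also passed without G-NHX9 replicate 5 (0.84; edgeR adjusted p = 0.033) or G-NHX9-DDNA replicate 2 (0.78; edgeR adjusted p = 0.041).

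G-NHX9-midi and G-NHX9-21FGAA keep different stretches of FG motifs, the C-terminal and the N-terminal ones. They also differ in length, as G-NHX9-midi lacks the N-terminal part of NUP98 and its GLEBS domain, which mediates contacts between proteins. Of the 8 genes, 7 were lower with G-NHX9-midi, where 36.1% of all genes changed (18.1% higher and 18% lower). The log2 fold changes were -3.77 for Fcer1a (SE 0.28; edgeR adjusted p = 3.1e-12), -2.47 for Il1rl1 (SE 0.25; edgeR adjusted p = 1.1e-09) and -1.89 for Prss34 (SE 0.35; edgeR adjusted p = 5e-05). They were -1.77 for Ms4a2 (edgeR adjusted p = 3.4e-06), -1.61 for Gata2 (edgeR adjusted p = 1.8e-05), -1.004 for Hdc (edgeR adjusted p = 0.0085) and -0.72 for Cd200r3 (edgeR adjusted p = 0.013), and Mitf differed by -0.18 (edgeR adjusted p = 0.37). The Cd200r3 call was lost without G-NHX9-midi replicate 2 (-0.56; edgeR adjusted p = 0.052).

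Per kilobase of the annotated exons of each gene, Fcer1a was the most abundant of the 8 in Empty, with 134 ± 50.2 CPM per kilobase (SD, n = 5), followed by Prss34 with 62.0 ± 10.8 and Il1rl1 with 35.3 ± 8.22. Hdc had 33.5 ± 6.41 CPM per kilobase, Ms4a2 27.4 ± 12.4, Gata2 17.7 ± 4.65, Mitf 14.3 ± 1.81 and Cd200r3 11.4 ± 2.84. With G-NHX9, Fcer1a had 21.0 ± 2.85 CPM per kilobase, beside 18.6 ± 3.56 for Ms4a2, and Prss34 had 52.1 ± 18.7.

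Across the 35 libraries, which share the groups and so are no independent series, the Pearson correlation of log2 CPM between pairs of the 8 genes ran from 0.125 (Mitf and Hdc) to 0.976 (Fcer1a and Il1rl1), with a median of 0.667. The genes of all those tested that were most like Fcer1a were Rprm (0.984), Gna14 (0.979) and Atp8b5 (0.977), and those most like Il1rl1 were Fcer1a, Hs6st2 (0.971) and Gna14 (0.971). Ms4a2 was most like Inpp4b (0.956), Hs6st2 (0.904) and F2r (0.903), none of which is among the 3 nearest to Fcer1a. Gata2 was most like Adgrl1 (0.963), Heatr5a (0.945) and Ndst2 (0.941), an enzyme that makes the heparin of mast cell granules. Mitf was most like Zeb2 (0.926), Camsap2 (0.924) and Mmgt1 (0.913), Hdc like St6galnac3 (0.882), Ptpn13 (0.872) and Fat2 (0.869), Cd200r3 like Vopp1 (0.907), Cdkn2a (0.885) and Gm43386 (0.883), and Prss34 like Fam46c (0.883), Plxdc2 (0.883) and Ptk2 (0.883).

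Other genes of the IgE receptor pathway did not move as one group. For this list and each list below, shares of all genes tested that changed against Empty are the background. They were 32.1% with G-NHX9, 26.6% with G-NHX9-8FA and 40.5% with G-NHX9-midi. With G-NHX9-21FGAA, G-NHX9-midi-21FGAA and G-NHX9-DDNA they were 27.1%, 16.9% and 17.2%. A count near its share is no result on a list, and no list was tested as a set. Of 30 tested genes of receptor signalling, 3 rose and 15 fell with G-NHX9, 2 rose and 8 fell with G-NHX9-8FA, 3 rose and 11 fell with G-NHX9-midi, 5 rose and 8 fell with G-NHX9-21FGAA, 3 rose and 3 fell with G-NHX9-midi-21FGAA, and 0 rose and 4 fell with G-NHX9-DDNA, each relative to Empty. Grap2, which encodes the adaptor GADS, fell by 1.46 on the log2 scale with G-NHX9, fell by 3.31 with G-NHX9-8FA and fell by 4.08 with G-NHX9-midi (edgeR adjusted p = 5.1e-05, 2.6e-10 and 2.9e-12). Plcg1, a phospholipase that the receptor activates, fell by 0.66 with G-NHX9 (edgeR adjusted p = 9.8e-05), Prkcb, a protein kinase C, rose by 0.57 with G-NHX9-midi-21FGAA (edgeR adjusted p = 0.011), and the adaptor gene Grb2 fell by 0.40 with G-NHX9-DDNA (edgeR adjusted p = 0.033). Lat, the adaptor on which the receptor's signal assembles, fell by 1.01 with G-NHX9-8FA and by 1.45 with G-NHX9-midi, and rose by 1.05 with G-NHX9-21FGAA and by 0.81 with G-NHX9-midi-21FGAA (edgeR adjusted p = 0.0011, 6.1e-06, 0.00087 and 0.013). The gamma chain gene Fcer1g, also used by Fc receptors of macrophages and neutrophils, fell by 0.34 with G-NHX9, by 0.65 with G-NHX9-21FGAA, by 0.42 with G-NHX9-midi-21FGAA and by 0.57 with G-NHX9-DDNA (edgeR adjusted p = 0.0048, 9.5e-06, 0.0027 and 0.00042). Of 18 tested genes of IL-33 receptor signalling, between 0 and 3 rose and between 1 and 6 fell with a construct, and the median log2 fold change lay between -0.12 and -0.03. With G-NHX9, Sigirr, an inhibitory receptor, rose by 0.36 and Tollip, an adaptor, fell by 0.35 (edgeR adjusted p = 0.0027 and 1e-04). The kinase genes Map3k7 and Ikbkb fell by 0.26 and fell by 0.24 with G-NHX9-8FA (edgeR adjusted p = 0.012 and 0.0011), and Myd88, the receptor's adaptor, and Tab2 each fell by 0.36 with G-NHX9-midi (edgeR adjusted p = 0.00067 and 0.04). Irak2, a kinase-like protein of the receptor complex, fell by 0.58 with G-NHX9-21FGAA, fell by 0.41 with G-NHX9-midi-21FGAA and fell by 0.48 with G-NHX9-DDNA (edgeR adjusted p = 4.4e-05, 0.0035 and 0.0012). Ikbkg fell by 0.27 with both G-NHX9-21FGAA and G-NHX9-DDNA (edgeR adjusted p = 0.014 and 0.024), and Map3k7 rose by 0.28 with G-NHX9-midi-21FGAA (edgeR adjusted p = 0.011).

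Among 18 tested genes of histamine and lipid mediators, 3 rose and 7 fell with G-NHX9, 4 rose and 6 fell with G-NHX9-8FA, and 4 rose and 9 fell with G-NHX9-midi, while 7 rose and 3 fell with G-NHX9-21FGAA, 8 rose and 1 fell with G-NHX9-midi-21FGAA, and 4 rose and 1 fell with G-NHX9-DDNA. Tph1, an enzyme of serotonin synthesis, fell by 2.64 on the log2 scale with G-NHX9, fell by 2.86 with G-NHX9-8FA and fell by 4.12 with G-NHX9-midi (edgeR adjusted p = 3.9e-08, 1.5e-08 and 8.5e-12). Ddc, which acts after it, fell by 3.78, fell by 4.22 and fell by 4.06 with these constructs and rose by 1.57 with G-NHX9-midi-21FGAA (edgeR adjusted p = 4.2e-12, 2e-12, 8e-13 and 0.00013). The histamine receptor gene Hrh4 rose by 2.39 with G-NHX9-midi-21FGAA (edgeR adjusted p = 2.5e-05), the prostaglandin receptor gene Ptger3 rose by 1.26 with G-NHX9-21FGAA and by 0.60 with G-NHX9-DDNA (edgeR adjusted p = 7.7e-05 and 0.048), Lta4h, which makes leukotriene B4, rose by 0.55 with G-NHX9-DDNA (edgeR adjusted p = 0.025), and Slc18a2, the transporter that loads histamine and serotonin into granules, rose by 1.46 with G-NHX9-21FGAA (edgeR adjusted p = 0.00012).

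Of 24 tested transcriptional regulators of mast cells and basophils other than Gata2 and Mitf, 5 rose and 8 fell with G-NHX9, 4 rose and 4 fell with G-NHX9-8FA, 5 rose and 8 fell with G-NHX9-midi, 5 rose and 7 fell with G-NHX9-21FGAA, 2 rose and 5 fell with G-NHX9-midi-21FGAA, and 1 rose and 3 fell with G-NHX9-DDNA. Gata1, which also serves erythroid cells and megakaryocytes, fell by 1.73 with G-NHX9-8FA and by 2.25 with G-NHX9-midi, and rose by 1.24 with G-NHX9-21FGAA, by 1.07 with G-NHX9-midi-21FGAA and by 0.80 with G-NHX9-DDNA (edgeR adjusted p = 6e-07, 2.4e-09, 0.00012, 0.0015 and 0.011). Its cofactor gene Zfpm1 fell by 0.93 with G-NHX9-8FA and rose by 0.96 with G-NHX9-21FGAA (edgeR adjusted p = 0.0037 and 0.0029), and Tal1 rose by 0.62 with G-NHX9-midi-21FGAA (edgeR adjusted p = 0.0058). Id2, an inhibitor of helix-loop-helix factors, fell by 1.01 with G-NHX9 and fell by 1.15 with G-NHX9-midi (edgeR adjusted p = 0.0023 and 0.00045), Zeb2 fell by 0.81 with G-NHX9 (edgeR adjusted p = 0.00079), and Irf8 fell by 0.52 with G-NHX9-DDNA (edgeR adjusted p = 0.0032). Of 13 tested cytokine receptor genes, 0 rose and 3 fell with G-NHX9, 1 rose and 4 fell with G-NHX9-8FA, 1 rose and 7 fell with G-NHX9-midi, 4 rose and 4 fell with G-NHX9-21FGAA, 4 rose and 3 fell with G-NHX9-midi-21FGAA, and 2 rose and 4 fell with G-NHX9-DDNA. Kit, the receptor for stem cell factor on which mast cells depend, fell by 0.88 with G-NHX9 and rose by 1.03 with G-NHX9-21FGAA, by 1.38 with G-NHX9-midi-21FGAA and by 0.74 with G-NHX9-DDNA (edgeR adjusted p = 0.0076, 0.003, 0.00078 and 0.04). Csf2ra, the GM-CSF receptor chain, fell by 0.66 with G-NHX9 (edgeR adjusted p = 1.7e-05). The erythropoietin receptor gene Epor fell by 2.00 with G-NHX9-8FA, fell by 3.02 with G-NHX9-midi and rose by 1.15 with G-NHX9-21FGAA (edgeR adjusted p = 6.6e-07, 3.6e-10 and 0.00067). Csf3r, the G-CSF receptor gene, rose by 1.03 with G-NHX9-8FA and fell by 1.33 with G-NHX9-midi-21FGAA (edgeR adjusted p = 0.00079 and 0.00046). Il9r rose by 1.23 with G-NHX9-21FGAA and Il5ra rose by 1.30 with G-NHX9-DDNA (edgeR adjusted p = 0.0045 and 0.0074). Csf2rb2 fell by 1.47 with G-NHX9-midi (edgeR adjusted p = 0.023), but Csf2rb and Csf2rb2 are nearly identical, so that their counts are uncertain.

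Defining mast cell markers were present in the cultures, and their mean sum moved in the same directions as the means of Fcer1a and Il1rl1. The 8 genes did not all follow it, as Hdc passed with no construct and Mitf was above Empty with none. The summed level of 8 mast cell markers that are not among the 8 genes (Kit, Cpa3, Tpsb2, Tpsab1, Cma1, Mcpt4, Mrgprb1 and Slc18a2) was 2008 ± 716 CPM (SD, n = 5) in Empty. It was 500.0 ± 31.6 CPM with G-NHX9, 534 ± 93.8 CPM with G-NHX9-8FA and 476 ± 85.2 CPM with G-NHX9-midi, with every library between 368 and 659 CPM. It was 3007 ± 400.4 CPM with G-NHX9-21FGAA, 4090 ± 1362 CPM with G-NHX9-midi-21FGAA and 2468 ± 384 CPM with G-NHX9-DDNA, from 1997 to 5777 CPM. Cpa3 alone made up the largest part of the mean sums, with 1036 CPM in Empty, 1801 CPM with G-NHX9-21FGAA and 2450 CPM with G-NHX9-midi-21FGAA. Empty replicate 5 (969 CPM) and G-NHX9-midi-21FGAA replicate 1 (2102 CPM), which were low in most of the 8 genes, had the lowest sums of their groups.

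Of the 7 markers tested, 6 fell with G-NHX9, 5 with G-NHX9-8FA and 6 with G-NHX9-midi and none rose, while 3 rose with G-NHX9-21FGAA, 4 with G-NHX9-midi-21FGAA and 1 with G-NHX9-DDNA and none fell. Those that rose with G-NHX9-21FGAA were Kit, Cpa3 and Slc18a2, and with G-NHX9-midi-21FGAA these and Cma1 rose. The protease genes Tpsb2 (-0.21), Tpsab1 (-0.63), Cma1 (0.24) and Mcpt4 (0.06) did not pass with G-NHX9-21FGAA (edgeR adjusted p = 0.7, 0.24, 0.63 and 0.94). The tryptase gene Tpsab1 fell by 4.42 with G-NHX9, fell by 5.40 with G-NHX9-8FA and fell by 5.50 with G-NHX9-midi (edgeR adjusted p = 1.9e-08, 3e-09 and 7.4e-10), the related tryptase gene Tpsb2 fell by 3.53 with G-NHX9-8FA (edgeR adjusted p = 2.3e-08), and the chymase gene Mcpt4 fell by 3.84 with G-NHX9 and fell by 4.88 with G-NHX9-midi (edgeR adjusted p = 1.6e-07 and 3e-09). Cpa3, the mast cell carboxypeptidase, rose by 1.24 with G-NHX9-midi-21FGAA (edgeR adjusted p = 0.0012). Cma1, a chymase of connective tissue mast cells, was 398 ± 153 CPM in Empty and 33.7 ± 11.4 CPM with G-NHX9, and Cpa3 1036 ± 460.2 and 301 ± 42.7 CPM. Mrgprb1, a mast cell receptor, was at most 16 counts in any library and was not tested. The part of mast cell number in the results on the 8 genes was not tested.

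Some markers of other lineages also passed the test, where between 16.9% and 40.5% of all genes changed with a construct. Of 5 basophil markers, 2 fell with G-NHX9, 3 with G-NHX9-8FA and 3 with G-NHX9-midi, and their summed level was 607 ± 148 CPM in Empty and between 463 and 497 CPM in these groups; Mcpt8, the basophil protease mMCP-8, was 261 ± 93.9 CPM in Empty and 88.6 ± 34.99 CPM with G-NHX9-midi. With G-NHX9-21FGAA 2 basophil markers rose and 1 fell, with G-NHX9-midi-21FGAA 1 rose and 1 fell, and with G-NHX9-DDNA 0 rose and 1 fell. Itga2, an integrin chain, fell by 1.39 with G-NHX9, fell by 2.04 with G-NHX9-8FA and fell by 2.62 with G-NHX9-midi (edgeR adjusted p = 7e-04, 8.6e-06 and 8.9e-08), and Mcpt8 fell by 0.84 with G-NHX9 and fell by 1.56 with G-NHX9-midi (edgeR adjusted p = 0.027 and 8.5e-05). Il4 fell by 0.98 with G-NHX9-8FA and rose by 1.03 with G-NHX9-21FGAA (edgeR adjusted p = 0.031 and 0.019). Il3ra, the IL-3 receptor chain, fell by 0.57 with G-NHX9-21FGAA, fell by 0.45 with G-NHX9-midi-21FGAA and fell by 0.54 with G-NHX9-DDNA (edgeR adjusted p = 0.001, 0.014 and 0.0038), and Cyp11a1 rose by 0.38 with G-NHX9-midi-21FGAA (edgeR adjusted p = 0.042). Of 6 eosinophil markers, 3 fell with G-NHX9 and 5 each with G-NHX9-8FA and G-NHX9-midi (1 rose with the latter), 1 each rose with G-NHX9-21FGAA and G-NHX9-midi-21FGAA and 2 with G-NHX9-DDNA, and their sum was 1384 ± 204 CPM in Empty, 622 ± 280.5 CPM with G-NHX9, 122 ± 84.0 CPM with G-NHX9-8FA and 57.7 ± 29.2 CPM with G-NHX9-midi. Of 6 erythroid markers, 0 passed with G-NHX9, 6 fell with G-NHX9-8FA and 5 with G-NHX9-midi, and 5 rose with G-NHX9-21FGAA, 6 with G-NHX9-midi-21FGAA and 2 with G-NHX9-DDNA. Of 6 megakaryocyte markers, 3 fell with G-NHX9 and 6 each with G-NHX9-8FA and G-NHX9-midi, and 1, 0 and 0 rose with the other 3 constructs in the same order.

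Markers of the remaining lineages moved in both directions, with the same shares of all genes as background. Of 6 macrophage markers, 2 rose and 2 fell with G-NHX9, 1 fell with G-NHX9-8FA, 4 with G-NHX9-midi, 3 with G-NHX9-21FGAA, 0 with G-NHX9-midi-21FGAA and 2 with G-NHX9-DDNA. Of 6 neutrophil markers, 1 rose with G-NHX9, 3 with G-NHX9-8FA, 1 with G-NHX9-midi (2 fell), 2 with G-NHX9-21FGAA, 0 with G-NHX9-midi-21FGAA and 4 with G-NHX9-DDNA. Of 6 stem and progenitor markers, 4 rose with G-NHX9, 2 with G-NHX9-8FA and 2 with G-NHX9-midi (1 fell with each), 4 with G-NHX9-21FGAA, 2 with G-NHX9-midi-21FGAA and 3 with G-NHX9-DDNA. Of 6 lymphoid markers 2 were tested, and 1, Il7r, fell with G-NHX9, G-NHX9-8FA, G-NHX9-midi and G-NHX9-21FGAA. The part of these lineages in the results on the 8 genes was not tested.

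**Figure D5:**
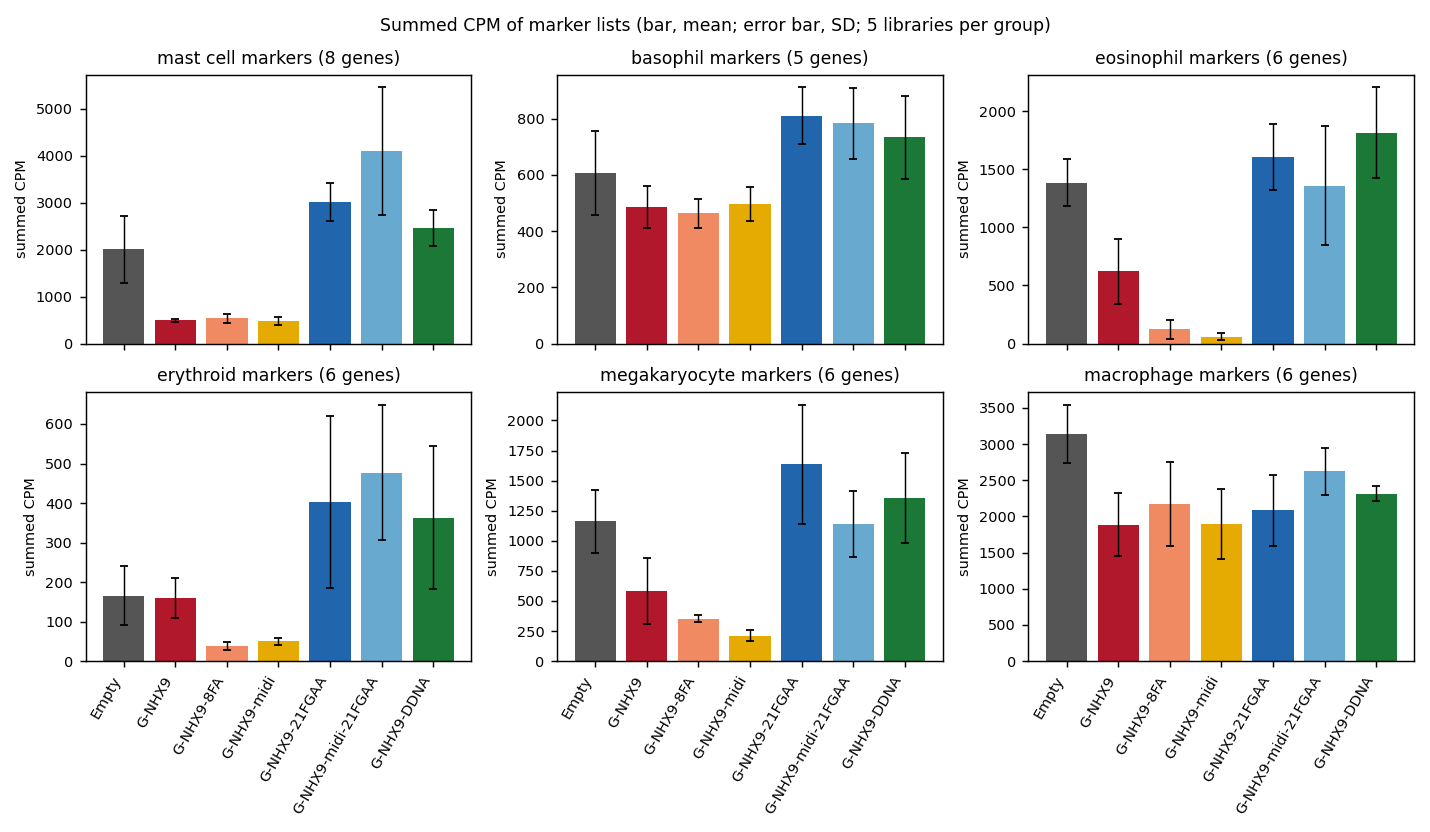
Summed CPM (y axis, from 0) of 6 lists of cell type markers in each group (x axis), with bars for the mean and error bars for the SD of 5 libraries. The mast cell mean is between 476 and 534 CPM with G-NHX9, G-NHX9-8FA and G-NHX9-midi and at least 2008 CPM in the other groups. The basophil, eosinophil and megakaryocyte means are also lower with each of G-NHX9, G-NHX9-8FA and G-NHX9-midi than in Empty. The macrophage mean is lower than in Empty (3141 CPM) with every construct, from 1883 CPM with G-NHX9 to 2624 CPM with G-NHX9-midi-21FGAA. The erythroid mean is lower with G-NHX9-8FA and G-NHX9-midi, and is 160 CPM with G-NHX9 and 166 CPM in Empty.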

How the data were processed

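RNA was sequenced from 35 libraries (TruSeq stranded total RNA kit, paired-end reads, NovaSeq). The authors deposited 1 table of raw read counts per gene for 49671 genes, in which no normalization was applied. The submitters' processing notes name STAR 2.7.0d, HTSeq 0.11.2, DESeq2 and the build mm10, and the annotation and strand setting are not given in the sources used here. No column of the authors' own comparisons was used.

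Groups were taken from the labels. Genes were kept by filterByExpr of edgeR (minimum count 10), which left 17166 genes with 99.96% of the counts, and TMM factors lay between 0.899 and 1.11. The edgeR quasi-likelihood test was fitted to all libraries with 1 mean per group (residual degrees of freedom 28), with Benjamini-Hochberg adjustment over all genes tested, for 13 comparisons. CPM are counts scaled to a common library size by TMM, and likeness between genes was taken on the log2 scale after adding a prior count of 2. Total counts gave a floor of 3 counts between 0.0396 and 0.0951 CPM, which covers counting error only. Of 70 replicate pairs none agreed within sampling noise (lowest chi-square per degree of freedom 23.2).

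The 8 genes and the lists of pathway genes and cell type markers were chosen with earlier results of these data known. Per list and construct, the named genes were the 2 with the largest change of those that passed, if the mean over both groups was 1 CPM or more, and for each of the 8 genes the 3 most correlated genes. This rule was followed for the pathway, mast cell and basophil lists. The lists of other cell types are given as counts, with only Il7r named, a choice made after the values were seen. Summed levels are given or drawn for the eosinophil, erythroid, megakaryocyte and macrophage lists, and not for the neutrophil, stem and progenitor, and lymphoid lists. Fcer1g in G-NHX9 and G-NHX9-midi-21FGAA and the levels of Cpa3, Cma1, Mcpt8 and Mrgprb1 were chosen for their roles outside this rule.

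Replicate numbers were taken to pair libraries where every same-numbered pair of deviations from the group means correlated above 0.1. This held in 5 comparisons (G-NHX9, G-NHX9-midi-21FGAA and G-NHX9-DDNA with Empty, and G-NHX9-21FGAA and G-NHX9-DDNA with G-NHX9), and the mean correlation was 0.232 for the same number and -0.0571 for other numbers. Because deviations were taken from group means, the second value follows largely from the first and adds no support for pairing. What a number stands for is not given in the labels. By their ages, Empty replicates 4 and 5 and G-NHX9 replicate 1 came from other mice than the same-numbered libraries of the other groups. A shared number therefore does not always stand for a shared mouse. The block was fitted to all 35 libraries, also to groups where the rule on correlation did not hold.

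Positions and exon lengths came from GENCODE M21 (GRCm38), in which 43749 of the 49671 identifiers matched with their version and 49326 without it. Prss34 matched without it. Promoters came from RefSeq (GRCm38.p6). Alternatives were other library scalings (library sizes only, RLE), no filter, a mean of at least 1 CPM, a replicate block, a fit to the groups compared, DESeq2 and leaving out each library. Tools were R 4.3.3, edgeR 4.0.16, limma 3.58.1, DESeq2 1.42.0, Python 3.11.15, pandas 2.3.3, numpy 2.4.6 and matplotlib 3.10.9. The tests were tried on simulated data, where the edgeR test missed part of the changes put in, more of the smaller ones. The bar for this trial was lowered after its outcome was seen. A gene that did not pass is therefore not shown to be unchanged.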

Additional observations from a re-analysis of the deposited data

Results flagged for a closer look

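Hdc in G-NHX9-midi-21FGAA replicate 5 was 560 CPM, and its gap to the nearest of the other 4 libraries was 0.872 of the range of the group. Cd200r3 in Empty replicate 5 was 38.6 CPM, with a gap of 0.712 of the range. These were 2 of 56 groups of 5 libraries examined in this way, and chance marks about 1 group in 20. The change of Prss34 with 21FGAA was smaller in the whole than in the truncated fusion by a test of the difference (-1.94 on the log2 scale, whole minus truncated). The causes were not tested.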

How the results depend on the processing

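With DESeq2, RLE size factors or a filter at a mean of 1 CPM, every one of the 104 gene and comparison results kept its direction and its side of the threshold. With library sizes only, the number of the 8 genes that passed was 1 for G-NHX9-DDNA with Empty, 0 for G-NHX9-8FA with G-NHX9 and 1 for G-NHX9-midi with G-NHX9. In that setting the log2 differences from Empty of Hdc with G-NHX9 (0.049), Ms4a2 with G-NHX9-8FA (0.041), Mitf with G-NHX9-midi-21FGAA (0.12) and Cd200r3 with G-NHX9-DDNA (0.042) changed sign, none of them past the threshold. That scaling moved the median of all genes against Empty to between 0.08 and 0.19, and the share of higher genes among those called from 52.5% to 75.4% with G-NHX9 and from 54.0% to 82.1% with G-NHX9-21FGAA. With no filter, 0 passed for G-NHX9-8FA with G-NHX9, and Mitf with G-NHX9-midi-21FGAA changed sign (0.017). In a fit to the groups compared, 1 passed for G-NHX9-DDNA with Empty and 0 for G-NHX9-8FA with G-NHX9. The same fit called Prss34 higher with G-NHX9-midi-21FGAA than in Empty (0.74) and lost Hdc between G-NHX9-midi-21FGAA and G-NHX9-midi.

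With the replicate block, 2 passed for G-NHX9-DDNA with Empty and 3 for G-NHX9-8FA with G-NHX9, and the differences of Ms4a2 with G-NHX9-8FA from Empty (0.021) and of Il1rl1 between G-NHX9-8FA and G-NHX9 (0.0067) changed sign. In comparisons whose libraries share only a number, the block also called Mitf with G-NHX9-8FA (-0.37) and with G-NHX9-21FGAA (-0.28) against Empty, Gata2 (-0.51) and Mitf (0.28) with G-NHX9-8FA against G-NHX9, and Gata2 with G-NHX9-midi against G-NHX9 (-0.57). It changed no other call than these and those given beside the results.

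Leaving out 1 library at a time, 0 to 1 genes passed for G-NHX9-DDNA with Empty (1 without Empty replicate 1), 0 to 1 for G-NHX9-8FA with G-NHX9 and 1 to 2 for G-NHX9-midi with G-NHX9. Differences from Empty that changed sign, none past the threshold, ran from -0.21 to 0.21 for Ms4a2 with G-NHX9-8FA, from -0.42 to 0.019 for Ms4a2 with G-NHX9-midi, from -0.075 to 0.38 for Prss34 with G-NHX9-21FGAA, from -0.083 to 0.075 for Mitf and from -0.18 to 0.44 for Hdc with G-NHX9-midi-21FGAA, and from -0.0040 (without Empty replicate 5) to 0.36 for Fcer1a with G-NHX9-DDNA. Against G-NHX9, Il1rl1 ran from -0.13 to 0.10 with G-NHX9-8FA and from -0.15 to 0.045 with G-NHX9-midi. The difference of the 21FGAA changes ran from -0.33 to 0.011 for Il1rl1, from -0.22 to 0.058 for Mitf and from -0.27 to 0.46 for Hdc, and that of Mitf was 0.012 without G-NHX9-midi-21FGAA replicate 1. The causes were not tested.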
